A study of Mus musculus with 7 samples.

Results

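The synaptotagmin, SNARE and Rab vesicle genes are described here as they appear in 7 maps of open chromatin from embryonic mouse brain. Members were the protein-coding genes of the RefSeq GRCm38 gene table with symbols Syt plus digits, Stx plus digits, Stxbp, Snap plus digits, Vamp, Rab plus digits, Syn1 to Syn3 or Unc13, and 128 of 21887 protein-coding genes met this rule. They comprised 59 Rab GTPases, 17 synaptotagmins, 15 syntaxins, 10 Rab regulators and effectors, 8 Vamp genes, 7 Stxbp genes, 5 Snap genes, 4 Unc13 genes and 3 synapsins. A list of 29 members known mainly from the neuronal synapse is called synaptic below, and the other 99 members are called general.

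Chromatin was profiled by ATAC-seq, in which a transposase cuts and tags DNA that is not wrapped in nucleosomes. The cells were neural progenitors of the dorsal telencephalon, sorted for the surface carbohydrate CD15. The study compared L3mbtl3 knockout with wild-type cells, L3mbtl3 being a chromatin protein that the series title links to Polycomb repressive complex 1. The knockout group (KO) held 4 libraries of L3mbtl3 -/- cells and the wild-type group (WT) held 3, all on the CD-1 strain and all at E14.5 by their titles, where the age label reads day 14. Heterozygous L3mbtl3 cells are also named in the growth protocol, although none of the 7 genotype labels is heterozygous. The labels describe no allele design, no sex, and no assignment of libraries to litters or pooled embryos, so p-values measure only the spread between these samples, which may be technical.

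Vesicle traffic runs on a shared set of proteins. Rab GTPases mark each compartment and recruit tethers, and a vesicle SNARE of the Vamp family then pairs with syntaxin and Snap partners on the target membrane to drive fusion. At the synapse the same machinery is tuned by synaptotagmins, which sense calcium, by Stxbp and Unc13 proteins, which prepare syntaxin and prime vesicles, and by synapsins, which hold vesicles in reserve. Progenitors use the general part of this machinery for secretion, recycling and cilium traffic, while the synaptic part serves neurons.

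Each library has 1 deposited list of broad peaks. A gene counted as called at an end if any peak reached into the 1 kb around the first or last base of its span, and its wide locus was the span plus 50 kb on either side. Peaks of different libraries sharing at least 1 base were joined into regions. Each peak's fold enrichment over background and its q are the authors' values, and the q was turned into a percentile within its own list, 100 being the strongest. Both describe a peak within its own list, and lists of different lengths do not give ranks that show a change. KO lists held 9827, 7111, 3366 and 17362 peaks and WT lists held 7448, 11394 and 6458, so a missing call carries less weight in the short lists. The depth of sequencing is unknown because the lists hold no read counts. L3mbtl3 had no end peak in any library and 1 peak in its wide locus in KO 4 and in WT 1, which does not check the genotype. Of 12 progenitor markers 11 had a peak in their wide locus in at least 1 library, and Hes1 had none. Their peaks summed to 7 to 28 per KO library and 9 to 16 per WT library. Such a peak was also found at 8 of 8 excitatory neuron, 4 of 4 endothelial, 4 of 6 interneuron and 4 of 5 microglia and blood markers. It was found at 1 of 4 meningeal and 2 of 4 glial markers, and at 69.2% of all genes. For 8 excitatory neuron markers the sums were 4 to 15 in KO and 3 to 9 in WT libraries, for 6 interneuron markers 3 to 6 and 2 to 4, and for 4 endothelial markers 0 to 5 and 0 to 1. In 5 microglia and blood markers the sums were 0 to 4 in KO and 2 to 3 in WT libraries, in 4 meningeal markers 1 to 2 and 1, and in 4 glial markers 0 to 2 and 1 to 2, with no peak in any library at Gad1, Dlx5, Csf1r, Lum, Col1a1, Foxc1, Pdgfra or Gfap. Fewer cells with an open site and a weaker signal per cell cannot be told apart in such bulk lists.

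The promoters of 7 members are printed first because these genes had end peaks in at least 5 of 7 libraries and have an entry in the promoter table. The stretches are 300 bases each, 250 before and 50 after the RefSeq start on GRCm38.p6, read 5′ to 3′ on the gene's strand, with capitals for the bases inside the called region. Rab3c is chr13:110280157-110280456 on the minus strand, Rab5b chr10:128696219-128696518 minus, Stxbp5 chr10:9900991-9901290 minus, Rab11b chr17:33760437-33760736 minus, Rab8a chr8:72160950-72161249 plus, Rab5a chr17:53478984-53479283 plus and Syt1 chr10:109010926-109011225 minus.
Rab3c: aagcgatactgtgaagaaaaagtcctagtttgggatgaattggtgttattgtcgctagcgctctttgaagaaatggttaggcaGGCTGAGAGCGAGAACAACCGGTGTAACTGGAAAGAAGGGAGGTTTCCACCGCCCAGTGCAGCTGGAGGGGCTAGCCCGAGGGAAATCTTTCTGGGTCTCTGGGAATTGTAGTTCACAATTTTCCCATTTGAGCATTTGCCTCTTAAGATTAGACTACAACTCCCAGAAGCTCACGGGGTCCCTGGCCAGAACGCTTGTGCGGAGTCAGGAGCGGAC
Rab5b: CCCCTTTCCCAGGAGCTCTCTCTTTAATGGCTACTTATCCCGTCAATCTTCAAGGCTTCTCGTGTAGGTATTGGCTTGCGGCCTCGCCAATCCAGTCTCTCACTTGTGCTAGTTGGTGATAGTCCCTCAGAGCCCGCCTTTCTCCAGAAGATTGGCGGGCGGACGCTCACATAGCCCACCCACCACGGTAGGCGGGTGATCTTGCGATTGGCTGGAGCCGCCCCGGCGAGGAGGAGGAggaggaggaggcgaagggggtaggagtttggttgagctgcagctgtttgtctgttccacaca
Stxbp5: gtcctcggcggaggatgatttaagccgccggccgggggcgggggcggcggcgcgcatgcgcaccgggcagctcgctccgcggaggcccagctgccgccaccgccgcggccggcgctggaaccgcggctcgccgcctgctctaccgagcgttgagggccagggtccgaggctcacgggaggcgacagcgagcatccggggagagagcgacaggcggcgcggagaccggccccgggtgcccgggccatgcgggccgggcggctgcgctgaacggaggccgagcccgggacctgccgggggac
Rab11b: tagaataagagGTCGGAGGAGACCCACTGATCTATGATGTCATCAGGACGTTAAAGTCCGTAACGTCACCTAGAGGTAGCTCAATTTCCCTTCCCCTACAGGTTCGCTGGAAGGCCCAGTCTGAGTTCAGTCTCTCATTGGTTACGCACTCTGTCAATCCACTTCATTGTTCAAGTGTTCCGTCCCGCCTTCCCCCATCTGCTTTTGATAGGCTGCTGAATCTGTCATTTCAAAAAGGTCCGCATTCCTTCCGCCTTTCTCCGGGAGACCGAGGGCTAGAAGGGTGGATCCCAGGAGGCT
Rab8a: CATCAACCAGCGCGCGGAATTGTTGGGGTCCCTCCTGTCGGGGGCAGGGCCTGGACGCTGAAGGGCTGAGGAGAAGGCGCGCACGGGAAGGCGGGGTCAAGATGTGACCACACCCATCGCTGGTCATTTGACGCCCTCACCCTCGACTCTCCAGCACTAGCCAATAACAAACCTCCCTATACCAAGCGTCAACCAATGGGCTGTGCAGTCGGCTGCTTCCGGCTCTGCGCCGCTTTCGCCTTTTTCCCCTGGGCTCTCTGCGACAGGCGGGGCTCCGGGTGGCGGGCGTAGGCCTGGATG
Rab5a: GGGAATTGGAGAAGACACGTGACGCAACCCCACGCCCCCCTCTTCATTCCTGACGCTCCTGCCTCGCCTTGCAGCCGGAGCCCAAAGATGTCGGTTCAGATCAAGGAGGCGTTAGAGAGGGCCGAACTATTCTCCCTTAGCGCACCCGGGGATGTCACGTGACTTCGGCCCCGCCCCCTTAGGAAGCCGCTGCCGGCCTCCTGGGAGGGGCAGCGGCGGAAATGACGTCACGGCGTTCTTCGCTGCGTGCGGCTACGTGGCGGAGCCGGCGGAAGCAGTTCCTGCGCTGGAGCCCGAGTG
Syt1: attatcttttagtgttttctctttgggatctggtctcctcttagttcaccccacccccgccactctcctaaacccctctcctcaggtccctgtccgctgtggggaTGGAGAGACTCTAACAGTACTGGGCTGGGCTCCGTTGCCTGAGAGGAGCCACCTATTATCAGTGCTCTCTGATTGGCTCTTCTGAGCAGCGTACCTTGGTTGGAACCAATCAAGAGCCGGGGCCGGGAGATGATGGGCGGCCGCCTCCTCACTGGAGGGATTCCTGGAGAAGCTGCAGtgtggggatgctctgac
All 300 bases of the Rab8a and Rab5a promoters lay inside the called region, as did 289 of Rab11b, 238 of Rab5b, 217 of Rab3c and 178 of Syt1. Stxbp5 is printed without capitals since its region began 729 bp upstream of the printed stretch, beside a sequence of 79.0% GC with 47 CpG dinucleotides. The Syt1 promoter held 8 CpG and 56.7% GC, the Rab3c promoter 11 CpG and 50.7% GC.

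At their ends, vesicle genes had peaks more often than protein-coding genes as a whole in 7 of 7 libraries. Members with an end peak numbered 20, 10, 9 and 35 in KO libraries and 17, 27 and 16 in WT libraries, which is 15.6%, 7.81%, 7.03% and 27.3% of members in KO and 13.3%, 21.1% and 12.5% in WT. All protein-coding genes stood at 8.76%, 6.12%, 3.56% and 18.0% in KO and 7.41%, 11.1% and 6.63% in WT. The excess of members over all genes averaged 6.15 ± 2.95 percentage points (SD, n = 7). It was 3.62 points with every list cut to the length of the shortest and 3.56 with peaks of −log10 q of at least 3. The ratio lay between 1.28 in KO 2 and 1.98 in KO 3. The excess was uneven across roles. Averaged over the 7 libraries, 21.55% of Rab GTPases had an end peak, against 8.80% of all genes. Stxbp genes stood at 20.4%, synapsins at 19.05%, and Snap and Vamp genes at 14.3% each. These roles hold few genes. The synapsin share came from Syn3 alone of 3 genes, and of the 7 Stxbp genes Stxbp5 was called in all 7 libraries. Synaptotagmins stood at 5.04%, syntaxins at 7.62%, Rab regulators and effectors at 5.71% and Unc13 genes at 0%, all below the share of all genes. The members' median span of 29.9 kb exceeded the 17.2 kb of all genes, and the part of gene length in this excess was not tested.

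By genotype the members' share did not separate. It averaged 14.45% ± 9.43 in KO and 15.6% ± 4.75 in WT libraries (SD, n = 4 and 3). The difference, −1.17 percentage points, was smaller than either SD. The longest list, KO 4, had the highest share and the shortest, KO 3, the lowest, so WT values lay within the KO range. Without KO 4 the difference was −5.47 percentage points, and it turned positive without KO 2 (1.04), KO 3 (1.30) or WT 2 (1.56). A larger share of KO than of WT libraries called 16 members (12.5%), against a background of 12.4% of all genes, and a larger share of WT than of KO libraries called 26 (20.3%), against 10.1%. The shares were equal for 86 members, of which 81 were called nowhere.

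**Figure D1:**
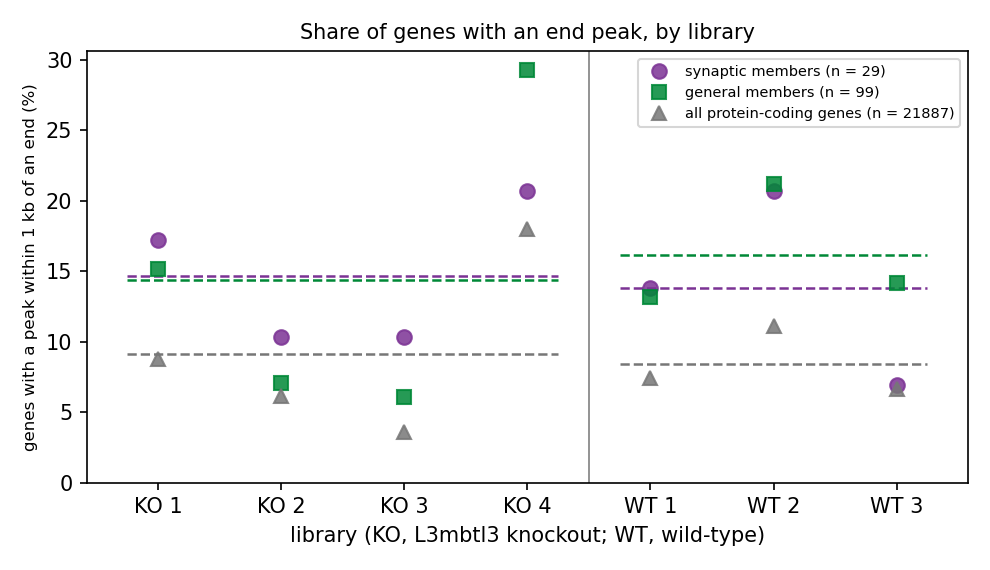
Share of genes with a peak within 1 kb of a span end, in percent, by library for synaptic members, general members and all protein-coding genes; dashed lines are group means. General members range from 6.06% in KO 3 to 29.3% in KO 4, with WT libraries between 13.1% and 21.2%.

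Across libraries the calls concentrated on few members. An end peak in at least 1 library was found for 47 of 128 members (36.7%), against a background of 23.6% of all genes, and for 40 members (31.2%) against 17.6% without KO 4. All 7 libraries called 5 members (3.91%), against a background of 1.13% of all genes. Another 15 members (11.7%) were called in 1 library each, against a background of 9.86% of all genes, and 7 of the 15 in KO 4 alone, as were 1317 of the 2159 genes called once. The count of Rab GTPases called at least once was 27 of 59 (45.8%), of Stxbp genes 3 of 7, of Vamp genes 3 of 8, of syntaxins 5 of 15, of Snap genes 2 of 5, of Rab regulators and effectors 4 of 10, of synapsins 1 of 3, of synaptotagmins 2 of 17 and of Unc13 genes 0 of 4.

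The 5 members open at an end in every library were Stxbp5, Rab3c, Rab30, Rab18 and Rab5b. Stxbp5 encodes tomosyn, a syntaxin-binding inhibitor of vesicle fusion, and its region (chr10:9902019-9902234) had fold enrichments of 7.34, 6.79, 4.84 and 8.04 in KO and 7.41, 7.15 and 4.08 in WT libraries. The low values came from KO 3 and WT 3, the shortest list of each genotype, and the groups overlapped. A second Stxbp5 region (chr10:9755002-9755116), called in KO 1 and WT 3, was the only one of 41 end regions with known strand to lie at the far end of its gene.

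Rab3c encodes a Rab of the synaptic vesicle group, and its region (chr13:110280120-110280373) had folds of 7.78, 7.38, 5.05 and 6.83 in KO and 7.07, 6.45 and 6.03 in WT libraries. Its centre lay 750 bp inside the RefSeq span, near the inner start that the promoter table gives for this gene. Rab30, a Rab of the Golgi, had the strongest of these sites (chr7:92741445-92741714), with folds of 8.34, 7.65, 8.3 and 9.28 in KO and 6.74, 7.49 and 7.27 in WT libraries and percentiles of 95.7 or more in every list. Every KO fold at Rab30 lay above every WT fold, in lists of unequal length, and this difference was not tested. The percentiles of the site were 98.5, 97.7, 98.8 and 99.6 in KO and 95.7, 97.6 and 98.3 in WT libraries, which overlapped.

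Rab5b and Rab5a direct early endosomes, and Rab5b was called everywhere (chr10:128696281-128696572) with folds of 7.73, 6.58, 5.25 and 7.65 in KO and 4.84, 7.04 and 5.03 in WT libraries. The Rab5b region also lies within 1 kb of an end of Pmel, so it cannot be assigned to either gene alone. Rab18, which acts at the endoplasmic reticulum and lipid droplets, had folds of 8.4, 9.05, 5.66 and 6.21 in KO and 6.72, 7.3 and 4.71 in WT libraries. In both genes the KO and WT ranges overlapped.

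Peaks at member ends also ranked above the middle of their lists. Their median percentile was 67.3, 93.0, 83.1 and 72.3 in KO and 64.1, 50.8 and 62.5 in WT libraries, against 54.9, 51.1, 52.4 and 57.5 in KO and 53.3, 55.1 and 55.2 in WT libraries for peaks at the ends of all genes. The member value was the higher of the pair in all libraries but WT 2, and the KO values lay above the WT values, in lists of unequal length. The highest, in KO 2 and KO 3, rest on 10 and 9 peaks, and no test was run on this summary of the members.

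**Figure D2:**
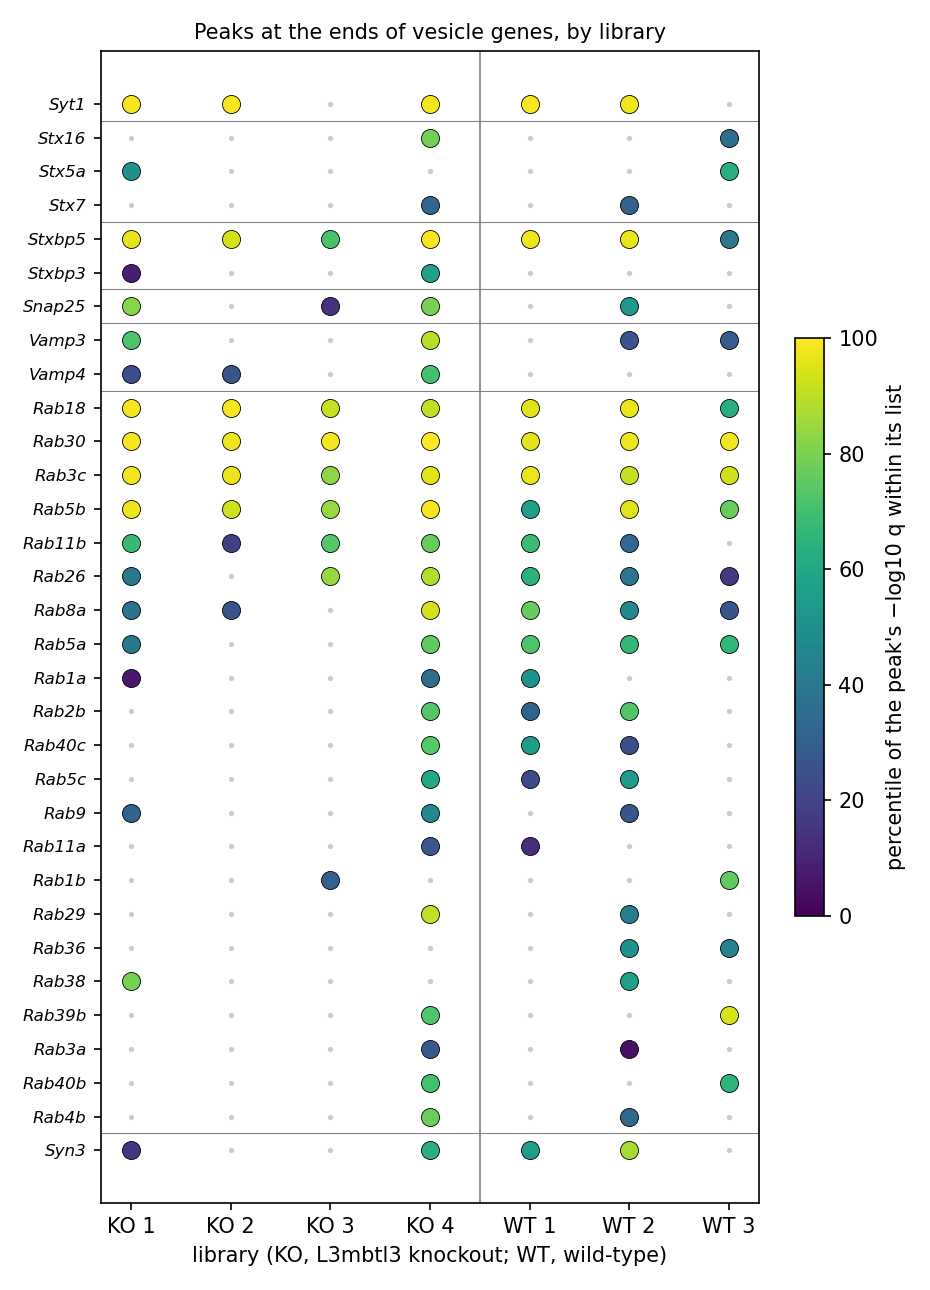
Peaks at the ends of the members called in at least 2 libraries, with genes as rows grouped by role and libraries as columns, KO left of WT; a filled circle is a call, coloured by the percentile of the peak's −log10 q within its list, and a small grey dot is no call. The 5 members called in all 7 libraries are mostly at high percentiles, and Syt1 is yellow in 5 libraries and missing in KO 3 and WT 3.

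Rab8a, Rab26 and Rab11b missed a single library each. Rab8a, which acts in cilium and membrane traffic, was called in all but KO 3 (chr8:72160883-72161355), with folds of 4.47, 4.38 and 6.55 in KO and 5.44, 4.65 and 4.13 in WT libraries. Rab11b of the recycling endosome was called in all but WT 3 (chr17:33760353-33760725), with folds of 5.09, 4.18, 4.66 and 5.32 in KO and 5.14 and 4.45 in WT libraries. Rab26, a Rab of secretory granules and lysosomes, was called in all but KO 2, at a region shared with the neighbouring gene Traf7. Rab5a was called in KO 1, KO 4 and the 3 WT libraries (chr17:53478871-53479303), with folds of 4.65 and 5.24 in KO and 5.08, 5.28 and 4.77 in WT.

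No member separated the genotypes completely at its ends. All genes gave 6 that were called in all KO and no WT library (0.0274%) and 4 in all WT and no KO library (0.0183%). Fisher's exact test, two-sided, cannot go below 0.0286 with 4 against 3 libraries. It gave 10 genes at that unadjusted p, 0 of them members, and 0 after Benjamini-Hochberg adjustment over 21887 genes, where the smallest adjusted p was 1. With so few genes at the smallest possible p, no adjusted p under 0.05 was possible. The members nearest to separation were Vamp4 and Rab36. Vamp4, a SNARE of the trans-Golgi network, was called in KO 1, KO 2 and KO 4 and in no WT library (chr1:162570331-162570676, folds 4.31, 4.32 and 4.99). Rab36, a Rab linked to late endosomes and lysosomes, was called in no KO library and in WT 2 and WT 3 (chr10:75037041-75037318, folds 4.7 and 4.23). Each had an exact Fisher p of 0.143 and an adjusted p of 1.

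Other differences in end calls rested on few libraries. Among the SNAREs, Vamp3 of recycling endosomes was called in KO 1, KO 4, WT 2 and WT 3, Stx16 of the trans-Golgi network in KO 4 and WT 3, and Stx5a of the Golgi in KO 1 and WT 3. Stx6 was called in WT 1 alone, Snap23 in KO 1 alone, Stx4a in KO 4 alone and Vamp9 in WT 2 alone. Stxbp3, a partner of plasma membrane syntaxins, was called in KO 1 and KO 4 at adjacent regions that did not overlap. Rab2b was called in KO 4, WT 1 and WT 2, and Rab9, which acts in transport from late endosomes, in KO 1, KO 4 and WT 2. Of the Rab regulators, Rab3gap2 was called in KO 2 alone, Rab11fip5 in KO 4 alone and Rab3ip in WT 2 alone.

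Nearly all end regions lay at the start of the gene. Strand was known for 101 members from the promoter table, and 40 of 41 end regions of these genes lay at the start end. Of the 40, 36 overlapped a RefSeq promoter window and 34 had their centre within 250 bp of the start, with a median centre 59.8 bp upstream and a median length of 237 bp. In KO 4, 29 of the 101 members (28.7%) had a peak at the start end and 0 at the far end, against 17.7% and 1.59% of 17492 genes with strand. The start-end shares of members in the other KO libraries were 12.9%, 7.92% and 4.95%, and in WT libraries 12.9%, 18.8% and 9.90%, against 8.68%, 6.01% and 3.6% in KO and 7.35%, 11% and 6.47% in WT libraries for all genes with strand. The preference for the start end was general, with 1519 genes called at the start and 98 at the far end in KO 1 among all genes. Of 50 end regions of members, 11 also lay within 1 kb of an end of another gene.

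**Figure D3:**
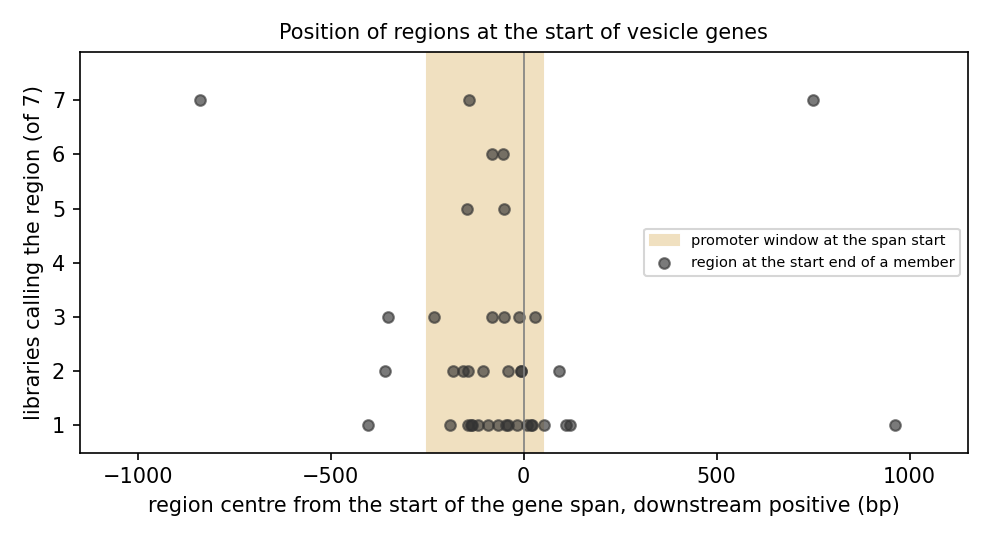
Centre of each region at the start end of a member, in bp from the start of the gene span with downstream positive, against the number of libraries (of 7) that called it; the shaded band is the 300-base promoter window placed at the span start. Of the 40 regions, 34 lie within 250 bp of the start, and among the regions called in 7 libraries that of Stxbp5 lies upstream of the band and that of Rab3c 750 bp downstream of the start.

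The promoters of members also differed in sequence by whether a peak overlapped them. Of 131 RefSeq promoters of 101 members, 39 (29.8%) overlapped a peak in at least 1 library, against 19.7% of all 21263 promoters. Library by library the member share was the higher except in KO 3, at 3.05% against 3.07% of all promoters. It was 6.11% against 5.13% in KO 2 and 22.1% against 15.0% in KO 4, the longest list. The shares were 4 of 26 promoters (15.4%) of synaptic and 35 of 105 (33.3%) of general members. Searched on both strands, CCAAT stood in 64.1% of the 39 member promoters with a peak and in 26.1% of the 92 without, against 54.7% and 34.1% of all promoters with and without a peak. The CRE-like TGACGT stood in 23.1% and 5.43% of member promoters and in 15.8% and 6.70% of all promoters in the same order. The GC box GGGCGG stood in 71.8% and 68.5% of member promoters and in 66.4% and 41.2% of all promoters in the same order. Without regard to peaks it stood in 69.5% of member promoters against 46.2% of all promoters.

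Of the printed promoters, Rab5b held 4 CCAAT matches, Rab8a 2 and Syt1 2, while Rab5a held 1 match to CCAAT and 2 to TGACGT. The 2 TGACGT matches of Rab5a are the 2 strands of a single TGACGTCA stretch. The word TATAAA stood in 5.34% of member promoters and 12.6% of all promoters. CCGGAA, an Ets-like word, stood in 22.1% and 18.7%, TGCGCA, the core of an NRF1-like word, in 16.0% and 9.74%, and CANNTG, the E-box, in 66.4% and 69.0%. Members had a median of 19 CpG and 62.0% GC per promoter, and all promoters 13 and 56.3%. These are matches of letters within 300 bases, promoters of 1 gene overlap, and GC content differed between the sets.

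The RE1 element, which the neuronal gene repressor REST binds, was searched by its left part CAGCACC and its right part GGACAG. They stood in 11.5% and 19.8% of member promoters and in 7.24% and 22.3% of all promoters. Both parts were found in promoters of Rab19, Unc13a and Rab39b, of which Rab39b overlapped a peak, in 2 libraries. The parts could stand in any order, at any spacing and on either strand, so such a promoter need not hold an RE1 element. The share of all promoters with both parts was not counted. The 26 promoters of synaptic members held CAGCACC in 11.5% and GGACAG in 34.6%, against 11.4% and 16.2% of the 105 promoters of general members. Snap25 and Vamp2 have no entry in the promoter table and were not searched.

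Within a library, neither synaptic nor general members had the higher share of end calls throughout. Their shares were 17.2%, 10.3%, 10.3% and 20.7% in KO and 13.8%, 20.7% and 6.90% in WT libraries, and those of general members were 15.2%, 7.07%, 6.06% and 29.3% in KO and 13.1%, 21.2% and 14.1% in WT libraries. The synaptic share was above the general share in 3 of 4 KO libraries and 1 of 3 WT libraries, and the difference averaged −0.866 ± 5.09 percentage points over the 7 libraries (SD). That average had no stable sign, at 4.49 with lists cut to the shortest, 3.85 at −log10 q of at least 3, 2.15 with ends of 2.5 kb, −7.74 with ends of 500 bp and −5.18 with a wider synaptic list. Counted over libraries, 6 of 29 synaptic members (20.7%) were called at least once, close to the 23.6% of all genes, and 41 of 99 general members (41.4%). The 6 were Syt1, Stxbp5, Snap25, Rab3a, Rab3c and Syn3.

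Several genes of the release machinery had no end peak at all. Stx1a, a syntaxin of the presynaptic membrane, Vamp2, the main vesicle SNARE of the synapse, Syn1 and Unc13a were called at an end in 0 of 7 libraries. All protein-coding genes averaged 0.526 wide-locus peaks per gene and library, and these genes lay on both sides of that level. There were 0, 0, 0 and 1 in KO and 1, 1 and 0 in WT libraries for Stx1a, and 0, 1, 0 and 1 in KO and 0 in each WT library for Vamp2. Unc13a had 0, 0, 1 and 2 in KO and 0, 1 and 0 in WT libraries, and Syn1 had 1, 0, 0 and 2 in KO and 1, 2 and 1 in WT libraries. Syn3 had an end peak in KO 1, KO 4, WT 1 and WT 2 and a region inside its span (chr10:86457879-86458062) called in all 7 libraries.

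Syt1, the calcium sensor of fast transmitter release, held the most wide-locus peaks of any member. It spans chr10:108497650-109010980, and its locus had 7, 5, 4 and 6 peaks in KO and 4, 5 and 3 in WT libraries. The groups overlapped at 4 and 5 peaks, and the means of 5.50 ± 1.29 and 4 ± 1 (SD, n = 4 and 3) did not separate (exact permutation p = 0.2). The peaks formed 8 regions, 7 of them inside the span and 1 at the start.

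The Syt1 start region (chr10:109010943-109011120), which overlaps the printed promoter, was among the strongest peaks of the lists that held it. Its fold was 8.32 in KO 1, 9.01 in KO 2 and 7.72 in KO 4, and 8.84 in WT 1 and 7.72 in WT 2, with percentiles between 98 and 99.2. It was called in neither KO 3 nor WT 3, so its absence did not follow genotype. Regions inside the span at chr10:108979713-108979995 and chr10:108701183-108702057 were called in all 7 libraries. Folds at the first were 8.07, 6.64, 4.94 and 6.42 in KO and 5.55, 7.19 and 4.63 in WT libraries, and at the second 5.51, 6.2, 5.8 and 5.76 in KO and 5.15, 6.32 and 4.54 in WT libraries.

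A further Syt1 region was called in every KO and no WT library. It is 203 bp long (chr10:108769443-108769645), lies inside the span 241 kb downstream of the start, and had folds of 5.28, 5.13, 5.64 and 5.44 in KO libraries, at percentiles of 67.1, 64.9, 94.8 and 80.4. All 4 peaks shared at least 1 base. This was 1 of 255 regions in member loci, against a background of 28 of 25623 regions (0.109%) called in all KO and no WT library, and no region in member loci was called in all WT and no KO library, against 34 of all regions (0.133%). Its two-sided exact Fisher p was 0.0286, the smallest possible, with an adjusted p of 1 over all regions by the Benjamini-Hochberg method. It was no longer separated when all lists were cut to the length of the shortest, nor when calls were limited to peaks covering 50% or more of its length.

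**Figure D4:**
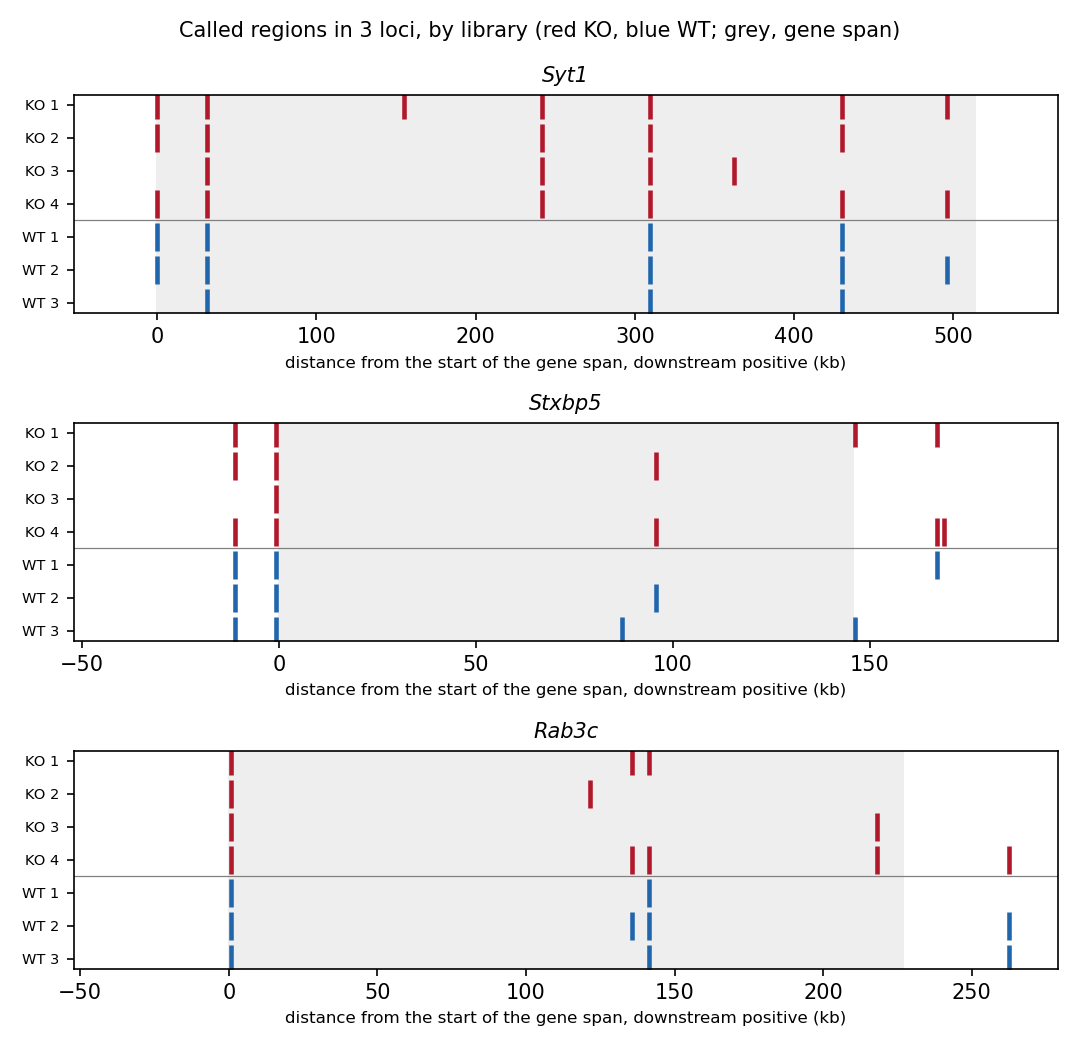
Regions called in the loci of Syt1, Stxbp5 and Rab3c, by library (KO above WT), against distance from the start of the gene span in kb with downstream positive; a tick is a called region and grey marks the span. The Syt1 column of ticks 241 kb downstream is present in the 4 KO libraries and absent in the 3 WT libraries, while the columns at 31.1 and 309 kb are present in all 7.

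Snap25, the SNARE partner of Syt1 at the plasma membrane, had the widest gap between the genotype means of wide-locus counts. It spans chr2:136713439-136782428 and had 3, 2, 2 and 5 peaks in KO and 0, 2 and 1 in WT libraries, with means of 3 ± 1.41 and 1 ± 1 (SD, n = 4 and 3, exact permutation p = 0.171). KO libraries were at or above the highest WT library. A region inside the span (chr2:136745088-136745320) was called in the 4 KO libraries and in WT 3, with folds of 5.33, 4.47, 3.76 and 5.03 in KO and 4.88 in WT. A region near the lower end (chr2:136714275-136714423) was called in KO 1, KO 3, KO 4 and WT 2. With peaks scaled to 10000 per list, Snap25 averaged 3.67 in KO and 1.10 in WT libraries, at an unadjusted exact permutation p of 0.0286 and an adjusted p of 1, in a setting where 23 of all genes were higher and 112 lower in KO at that unadjusted threshold. With every list cut to the length of the shortest, the KO minus WT difference was 0.667 peaks for Snap25, against 2 in full lists, and 0.667 for Syt1, against 1.5. Rab22a, an endosomal Rab named after its values were seen, had a difference between those of Snap25 and Syt1, with 2, 1, 0 and 4 peaks in KO and 0 in each WT library (exact permutation p = 0.257).

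Over all members, wide-locus counts by genotype gave no call. Members averaged 0.707 ± 0.543 peaks per gene in KO and 0.615 ± 0.151 in WT libraries (SD, n = 4 and 3), with KO values of 0.648, 0.375, 0.312 and 1.49 and WT values of 0.531, 0.789 and 0.523. WT values lay within the KO range, which KO 3 and KO 4 span, and without KO 4 the difference of 0.0925 became −0.169. Of 107 members with a wide-locus peak, 0 were higher and 0 lower in KO at an unadjusted exact permutation p under 0.05. The background was 18 of 15153 genes higher (0.119%) and 32 lower (0.211%), and after Benjamini-Hochberg adjustment the smallest p was 1. With 35 assignments the exact permutation p cannot go below 0.0286. With so few genes at that floor, no adjusted p under 0.05 was possible, so the adjusted values decide nothing.

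Among the remaining wide loci, Stxbp5 had 4, 3, 1 and 5 peaks in KO and 3, 3 and 4 in WT libraries, and Rab3c had 3, 2, 2 and 5 in KO and 2, 4 and 3 in WT libraries. Stxbp6, which encodes amisyn, a syntaxin-binding regulator, had 3, 2, 1 and 6 in KO and 3, 3 and 0 in WT libraries, and Syt16 had 1, 2, 0 and 6 in KO and 0, 4 and 1 in WT libraries. In each of these the genotypes overlapped and KO 4 was highest. Stx19, an unusual syntaxin without a transmembrane anchor, had the highest count per length, 13 peaks per 100 kb summed over the 7 libraries, with 2, 2, 1 and 2 in KO and 2, 2 and 3 in WT libraries. A region in its flank, called in all 7 libraries, lies at an end of Arl13b.

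The strongest region in any member locus lay inside Stxbp4 (chr11:90538814-90539135), with folds of 11, 8.98, 11.1 and 15.1 in KO and 10.5, 9.82 and 11.3 in WT libraries. It was named after its values were seen, and its percentile was 99.3 or more in every list. Regions called in at least 3 KO and no WT library numbered 5 of 255 (1.96%), against 290 of all 25623 regions (1.13%), and lay at Syt1, Vamp4, Unc13c and in the flanks of Stx6 and Rab22a. Regions called in at least 2 WT and no KO library numbered 7 (2.75%), against 387 of all regions (1.51%), and lay at Rab36, Stx8, Unc13c and in the flanks of Rab3gap2, Rab27b, Syn1 and Rab9. Of the 255 regions, 120 were called in 1 library, 69 of them in KO 4, and 13 in all 7. Pairing regions with members gave 259 pairs, of which 50 lay at the member's own end, 58 inside its span and 151 in its flanks, and 72 of those in flanks lay at an end of another gene.

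Per length of locus, synaptic members stood above general members in 3 of 4 KO libraries and in 0 of 3 WT libraries. Synaptic loci held 0.494, 0.294, 0.263 and 0.865 peaks per 100 kb in KO and 0.309, 0.433 and 0.309 in WT libraries, and general loci held 0.359, 0.204, 0.162 and 0.951 in KO and 0.338, 0.514 and 0.331 in WT libraries. The synaptic to general ratio was 1.38, 1.44, 1.62 and 0.910 in KO and 0.914, 0.842 and 0.934 in WT libraries. KO 4 lay among the WT libraries, so the genotypes overlapped, and no test was run on these lists. Leaving out Syt1, an alternative chosen after seeing the data, the ratios were 1.19, 1.17, 1.37 and 0.898 in KO and 0.808, 0.764 and 0.877 in WT libraries. The KO ratios, the lowest of them from KO 4, then lay above the WT ratios. As differences in peaks per 100 kb, however, the genotypes still overlapped without Syt1. KO 4 stood at −0.0973, and WT libraries at −0.0649, −0.1215 and −0.0408. Synaptic spans had a median of 64.4 kb and general spans 26.4 kb, and excitatory neuron markers held 4 to 15 peaks per KO and 3 to 9 per WT library, whose part in these ratios was not tested. All members together exceeded all genes in peaks per 100 kb by ratios between 1.003 in KO 2 and 1.36 in KO 3.

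**Figure D5:**
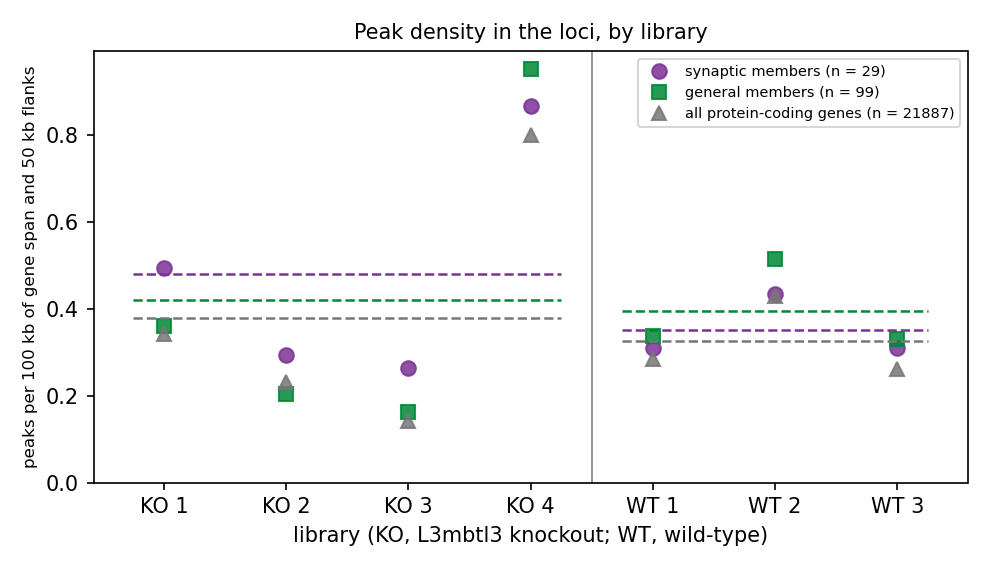
Peaks per 100 kb of gene span and 50 kb flanks, by library for synaptic members, general members and all protein-coding genes; dashed lines are group means. Synaptic loci lie above general loci in KO 1, KO 2 and KO 3, at 0.494, 0.294 and 0.263, and below them in KO 4 and the WT libraries.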

How the data were processed

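The labels' protocols name a Nextera kit for the ATAC-seq libraries. Per the submitters' processing notes, the tools were MACS2, Bowtie2 2.3.5.1 and SAMtools 1.9, with deepTools 3.3.0, FastQC 0.11.8 and CASAVA 1.9, on GRCm38. Settings, MACS2 version and read shifts were not given in the sources used here. Peak lists, 1 per library, were deposited by the authors with a fold enrichment, which is a ratio over background, and −log10 p and −log10 q values. The smallest deposited −log10 q was 1.30 to 1.32. The deposited score was not used.

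Gene spans came from RefSeq GRCm38.p6, which gives no strand, and strand and sequence came from RefSeq promoters of the same build. Coordinates count from 1. End calls and regions were compared with two-sided Fisher's exact tests, and wide-locus counts with an exact permutation test over 35 assignments of the 7 libraries, each adjusted by Benjamini-Hochberg over all features. A peak near several genes counted for each. The steps were tested on simulated data. Python 3.11.15, numpy 2.4.6, scipy 1.17.1 and pandas 2.3.3 were used. Peak values are ranked only within a list. No batches are labelled.

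Some members are counted in the totals and not reported singly here. Members and lists were chosen with earlier results of these data known. Genes named are the core release genes, members with end peaks in at least 5 libraries, those with separated ends or regions, up to 3 per role with the largest genotype difference in end calls, and those with most wide-locus peaks in number or per length; others are said to be chosen after their values were seen or complete a count. Of the alternatives tried, the synaptic list without Syt1 and all those for the number of members called were added after seeing the data.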

Additional observations from a re-analysis of the deposited data

Results flagged for a closer look

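Among the wide-locus peak counts of named members, 8 KO groups had 1 library far from the other 3. Such a gap arises by chance in about 1 in 20 groups of continuous values, and counts this small, with ties, meet it more easily; 46 groups were looked at. KO 4, the longest list, was the high library at Rab11fip5 with 6 peaks, at Stx4a with 3, and at Stx16 and Stx1a with 1 each. KO 2 was high at Rab3gap2 with 1 peak. KO 3, the shortest list, was the low library at Snap23 with 0 and at Stx19 with 1, and KO 1 was low at Stx6 with 0.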

How the results depend on the processing

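Of 206 alternative values, 151 met a loose rule of agreement. For shares, peaks per gene and densities the rule was a shift of less than 1 SD, and for counts of genes or regions a fixed factor. For Syt1 and Snap25 only the sign had to hold. A value could thus meet the rule after changing sign or shrinking, as some given below did. With every list cut to the shortest, 23 members were called at least once, synaptic minus general end share was 4.49 points, 3 gene ends and 14 regions were called in all KO and no WT library, 0 of these regions in member loci, and 1 member (Rab2b, lower in KO) reached an unadjusted permutation p under 0.05, against 27 genes higher and 29 lower overall. At −log10 q of at least 3, 26 members were called, gene ends separated numbered 1 for KO and 2 for WT, regions 15 and 9, and genes with higher and lower wide-locus counts 10 and 1. These counts were 11 and 11 with flanks of 10 kb, and 7 and 10 in gene spans only. Per 10000 list peaks, 23 genes were higher, 112 were lower and 3 members passed (Snap25 higher, Rab35 and Rab20 lower). Autosomes only, or ends of 500 bp, left 2 ends for WT, and 500 bp gave −7.74 points for synaptic minus general. Where peaks had to cover 50% of a region, 0 member-locus regions remained for KO. Signs changed for the genotype difference in end share, 3.32 points at −log10 q of at least 3, for synaptic minus general end share, 3.85 points at that threshold and 2.15 with ends of 2.5 kb beside the 4.49 above, and for synaptic minus general density, −0.0163 with a wider synaptic list and −0.0232 without Syt1.

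Leaving out each library gave −5.47 to 1.56 points for the genotype difference at ends, −0.169 to 0.224 peaks per gene in wide loci, 40 to 47 members called, 5.52 to 6.90 points over all genes, −1.72 to 0.424 points and −0.00464 to 0.0322 peaks per 100 kb for synaptic minus general, 1 to 2 peaks for Syt1 and 1.33 to 2.5 for Snap25. Ends separated numbered 7 to 32 for KO and 6 to 32 for WT, with 0 to 1 member (Vamp4 without KO 3, Rab36 without WT 1). Regions numbered 35 to 208 and 38 to 199, in member loci 1 to 4 and 0 to 4. Wide-locus tests were not repeated, as no p under 0.05 is then possible.

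The labels do not say that equal replicate numbers pair libraries. Deviations of libraries with equal numbers correlated at −0.0115, 0.0546 and 0.0652. KO 1 and KO 2 were closest to WT 2, and KO 3 was closest to WT 3. The narrowest peaks were also those of KO 3 and WT 3, with median widths of 140 and 142 bp, and why was not tested. A replicate block over numbers 1 to 3, which drops KO 4, gave −5.47 points and −0.169 peaks per gene. Unknown depth limits every absent call.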

Other observations

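The absence of the Syt1 start region from KO 3 and WT 3 was looked at further after its values were seen. Of 60 regions called in the other 5 libraries at a mean percentile of at least 98, 54 were also called in both KO 3 and WT 3, 5 were missing from KO 3 alone and 0 from WT 3 alone. The Syt1 start region was the 1 (1.67%) missing from both. No read counts are in the lists, so whether signal was present below the calling threshold in these libraries was not tested.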
